A study of Homo sapiens with 10 samples.

Results

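Eicosanoid and histamine metabolism was followed through 8 genes: the lipoxygenase ALOX5 and its helper ALOX5AP, the lipoxygenase ALOX15B, the cyclooxygenases PTGS1 and PTGS2, the prostaglandin dehydrogenase HPGD, the secreted phospholipase PLA2G2A and the histamine methyltransferase HNMT. Every probe set that carried 1 of these symbols alone was taken, which gave 16 of the 16376 probe sets analysed. These 16376 are those whose identifiers sort first, and other probe sets of the array were not examined. The genes were chosen by their role and by the log2 changes with R5020 in both PR-A lines, where ALOX5 and HNMT fell mainly in WT PR-A cells, so the R5020 responses are described without a test. For scale, R5020 changed 6.41% of all probe sets in the WT PR-A line and 1.4% in the PR-A K388R line past the threshold given below. The arrays were Affymetrix U133 Plus 2, with 2 for each of 5 groups. T47D-Y are PR-negative human breast cancer cells cloned from the T47D line. From them, 2 sublines were made by stable transfection, one with WT PR-A and one with PR-A K388R, which lacks the lysine to which SUMO is attached. Both sublines received ethanol vehicle or 10 nM of the synthetic progestin R5020 for 24 h, and T47D-Y cells received vehicle. T47D-Y cells with R5020 were not analysed here. Each receptor form was carried by 1 subline, so the receptor and other properties of that subline cannot be told apart. Whether replicates 1 and 2 came from separate cultures is not given, and the p-values below cover only the spread among these 10 samples.

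Eicosanoids are lipid mediators made from arachidonic acid. Phospholipases A2 release this fatty acid from membranes. Cyclooxygenases turn it into the precursor of prostaglandins and thromboxane, and 5-lipoxygenase, the product of ALOX5, turns it into the precursor of leukotrienes with the help of the membrane protein encoded by ALOX5AP. HPGD inactivates prostaglandins. Histamine is removed by methylation inside cells, the reaction of HNMT, or by oxidation outside them, the reaction of diamine oxidase, which is encoded by AOC1.

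Values are log2 signals per probe set. The lower quartiles of the 10 arrays lay between 3.28 and 3.39, their medians between 4.59 and 4.69 and their upper quartiles between 6.93 and 7.07. The luminal epithelial markers measured, KRT18, KRT19, EPCAM and CDH1, lay above the upper quartile on every array (4 of 4). No leukocyte marker did (0 of 6), and PTPRC, LYZ and CSF1R stayed under the median on every array. Of 3 mast cell markers 0 were above the upper quartile, and CPA3 and KIT were under the median throughout. The median over the leukocyte markers was 4.16 with vehicle and 4.21 with R5020 in the WT PR-A line, against 4.18 and 4.19 in the PR-A K388R line.

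HNMT carries one of the widest patterns, and its upstream sequence is shown for that reason. The gene lies on chromosome 2 from 137964473 to 138016364 (GRCh38.p14). The 250 bases before its start, chr2:137964223-137964472 on the plus strand, were taken from RefSeq. Capitals mark the longest run of 1 base, which is a run of 17 T.
HNMT: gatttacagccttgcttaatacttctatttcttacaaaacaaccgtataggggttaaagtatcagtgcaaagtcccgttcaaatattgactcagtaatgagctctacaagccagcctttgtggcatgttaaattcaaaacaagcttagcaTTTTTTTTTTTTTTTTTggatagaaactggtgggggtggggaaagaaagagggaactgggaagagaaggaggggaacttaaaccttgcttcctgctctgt
Its GC content was 39.6%. On both strands this stretch held no match to ACANNNTGT, the core of the progesterone response element, or to the half-site AGAACA, whose last letters are the first of that core. It also held no GC box (GGGCGG) and no TATAAA. The shares of all 35116 RefSeq promoter stretches of this length with a match were 4.61%, 12.4%, 42.6% and 10.7%, in that order. Promoter entries matched 6 of the 8 genes, without ALOX5 and ALOX15B. Among these 6 genes the core matched 0, the half-site 1 (PLA2G2A), the GC box 2 (PTGS1 and HPGD) and TATAAA 2 (PTGS1 and PTGS2). The shares above are per stretch, while a gene was counted if any of its stretches matched. PTGS1, HPGD and PLA2G2A had more than 1 stretch each. No match says only that these letters were not in the window.

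ALOX5 read above the array medians in all 3 lines and was lowest in WT PR-A cells with R5020. Probe set 204446_s_at, the one with more signal, read 8.86 and 8.47 in T47D-Y cells. It read 6.95 and 7.18 in WT PR-A cells with vehicle, and 4.69 and 5.13 with R5020. The PR-A K388R arrays read 9.60 and 9.45 with vehicle, and 8.66 and 8.53 with R5020. Vehicle-treated PR-A K388R cells were therefore highest, T47D-Y and R5020-treated PR-A K388R cells overlapped, and both WT PR-A groups lay below all others without overlap.

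With R5020 the level fell by 2.15 (log2, standard error 0.18; 4.45-fold) in WT PR-A cells and by 0.93 (1.91-fold) in PR-A K388R cells. The difference of these responses, PR-A K388R minus WT PR-A, was 1.22 (standard error 0.26). It was 0.94 without replicate 1 of the R5020-treated WT PR-A arrays and 1.499 without replicate 2. On both of these arrays the signal was close to the array medians. Without R5020, WT PR-A cells differed from T47D-Y cells by -1.60 (3.02-fold lower), PR-A K388R cells were 0.87 higher (1.82-fold), and PR-A K388R exceeded WT PR-A by 2.46 (5.51-fold). These values include the same vehicle arrays as the responses for which the gene was chosen, and no test was made.

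The second ALOX5 probe set, 204445_s_at, followed the same order of lines, but its R5020 response was not larger in WT PR-A cells. It read 5.47 and 5.73 in WT PR-A cells with vehicle and 5.29 and 5.31 with R5020, so the groups did not overlap. The PR-A K388R arrays read 7.18 and 7.29, then 6.89 and 6.64. The changes were -0.30 and -0.47, with a difference of -0.17 (standard error 0.19), against 1.22 for the other probe set. Over the 10 arrays both probe sets had a Pearson's r of 0.947, which rests mostly on the difference between lines. That ALOX5 fell mainly in WT PR-A cells thus holds for 1 of its 2 probe sets analysed here.

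HNMT had its signal in WT PR-A cells alone among the 3 lines. Probe set 204112_s_at read 7.52 and 7.56 in WT PR-A cells with vehicle and 4.93 and 5.93 with R5020. The PR-A K388R arrays read 3.97 and 3.34 with vehicle and 3.76 and 3.47 with R5020, and the T47D-Y arrays 4.03 and 3.90. Both groups of WT PR-A cells lay above the array medians on every array. The 6 arrays of the other groups lay under the medians, between 3.34 and 4.03, where the PR-A K388R groups overlapped with each other.

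With R5020 this signal changed by -2.11 (standard error 0.30; 4.32-fold lower) in WT PR-A cells. The 2 treated arrays differed widely, and the change was -1.49 without replicate 1 and -2.74 without replicate 2. The change in the PR-A K388R line was -0.04, from a level near the lower quartiles, and it was 0.35 or -0.44 without vehicle replicate 1 or 2 of that line. The difference of the responses was 2.07 (standard error 0.42), and 1.45 or 2.69 without 1 of those arrays. It sets a line with signal against one almost without. Unliganded WT PR-A cells exceeded T47D-Y cells by 3.58 on the log2 scale, and PR-A K388R minus WT PR-A was -3.88. No fold is given for these differences, since the lower signals were not shown to be above background. PR-A K388R minus T47D-Y was -0.31 (standard error 0.30), but -0.70 without vehicle replicate 1 of PR-A K388R and 0.09 without replicate 2, so 1 array set its direction. As for ALOX5, these are descriptions.

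The other 3 HNMT probe sets analysed did not show this pattern. Probe set 1554303_at read 3.91 to 4.63 over all arrays, 204110_at 3.16 to 3.48 and 204111_at 2.63 to 3.02, and all of them lay under the array medians on all 10 arrays. Their changes with R5020 in WT PR-A cells were 0.08, 0.03 and 0.07. Among the probe sets analysed, the HNMT result rests on 204112_s_at alone.

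**Figure D1:**
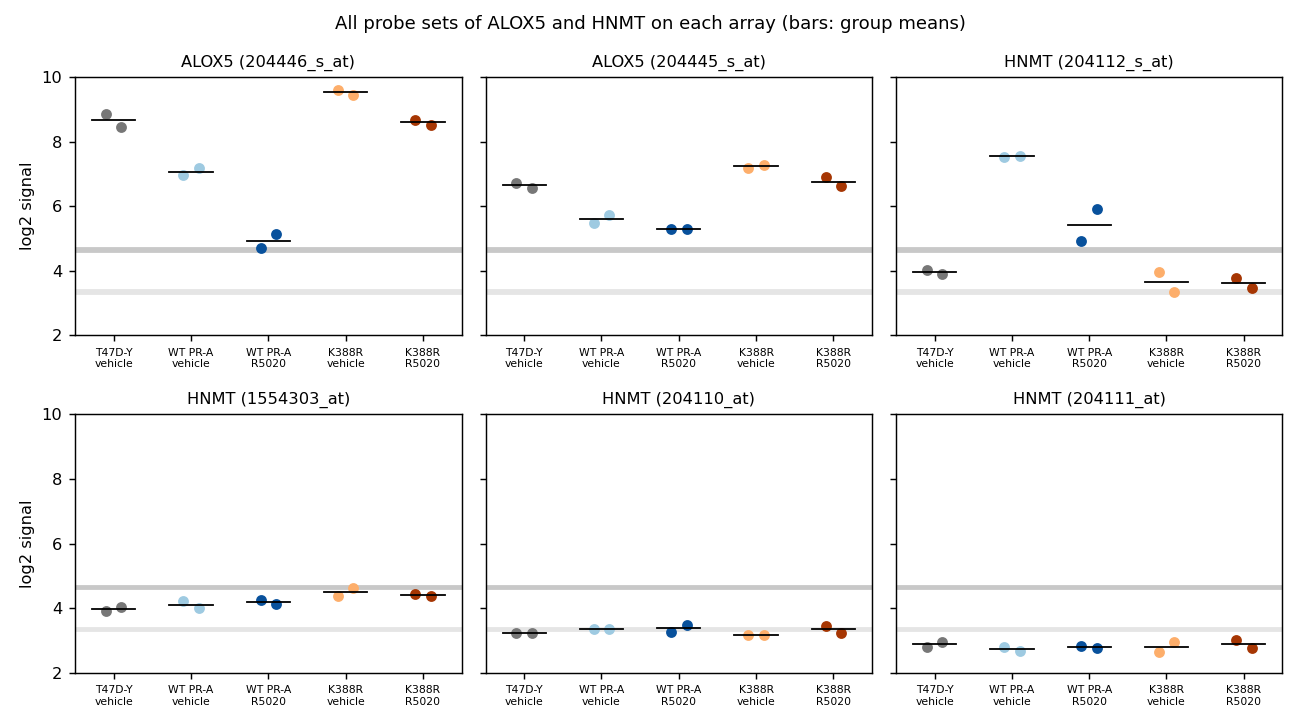
Log2 signal of each analysed probe set of ALOX5 and HNMT on the 10 arrays. Points are arrays, and black bars are group means of 2 arrays. The light and dark bands span the lower quartiles and medians of the arrays. Both ALOX5 probe sets are lowest in WT PR-A cells, and HNMT stands above the bands in WT PR-A cells for 204112_s_at only.

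The group means of the other 6 genes lay less than 1 apart, and 3 of these genes stayed under the array medians on every array. The cyclooxygenase PTGS2, the inducible form, read 2.62 to 2.92 with 204748_at and 2.53 to 2.93 with 1554997_a_at, under the lower quartile on all 10 arrays. HPGD, which ends prostaglandin signalling, read 2.77 to 3.15 with 203914_x_at and 2.37 to 2.57 with 203913_s_at, also under the lower quartile throughout. ALOX5AP, without which 5-lipoxygenase makes little leukotriene in cells, read 3.93 to 4.36, under the median on all arrays. The values carry no detection calls, so whether these transcripts were present is not known.

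PLA2G2A, a secreted phospholipase A2, read between 5.47 (T47D-Y) and 5.92 (PR-A K388R, vehicle), always above the median. ALOX15B, which makes 15-hydroperoxy acids, read 4.80 and 4.87 in T47D-Y cells and 5.03 and 5.37 in WT PR-A cells with vehicle. With R5020 the WT PR-A arrays of ALOX15B read 5.39 and 4.98, overlapping with vehicle. The PR-A K388R arrays of ALOX15B read 5.08 and 5.05, then 5.50 and 5.51, a change of 0.44 (standard error 0.16) with no overlap. Its other probe set, 1555416_a_at, changed by 0.31 in that line and by 0.25 in WT PR-A cells.

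PTGS1, the constitutive cyclooxygenase, read 4.23 and 3.99 in WT PR-A cells with vehicle and 4.68 and 4.63 with R5020 (205128_x_at), a change of 0.54. The same probe set changed by 0.23 in PR-A K388R cells, where vehicle (4.34 and 4.65) and R5020 (4.62 and 4.84) overlapped. The second PTGS1 probe set, 205127_at, changed by -0.04 and -0.17. The standard error was 0.13 for each, and neither change was upward like those of the first probe set. The suffix _x_at marks probe sets whose probes can bind other transcripts as well. Over the probe sets of these 6 genes, 10 in all, R5020 changes ranged from -0.12 to 0.54 with WT PR-A and from -0.17 to 0.44 with PR-A K388R.

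**Figure D2:**
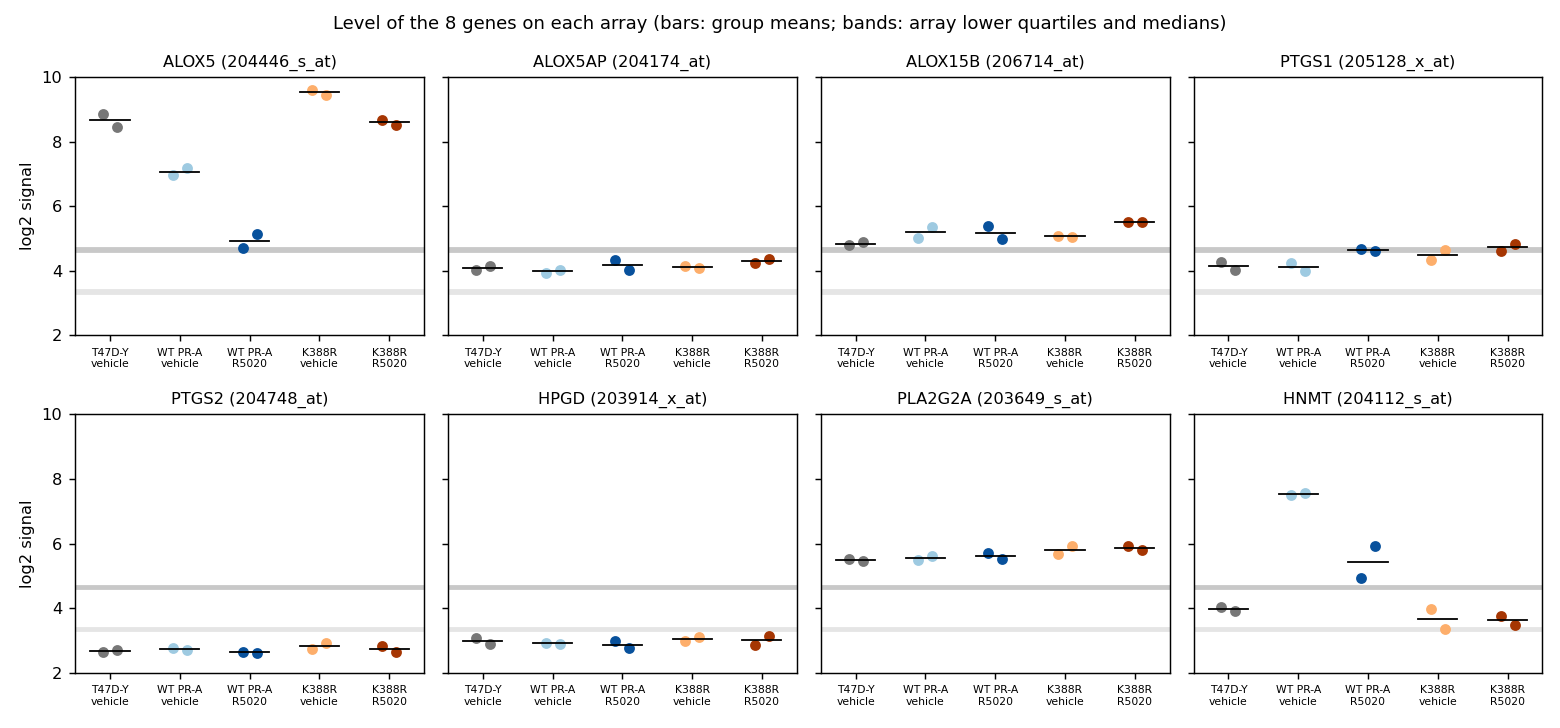
Log2 signal of the 8 genes on the 10 arrays, with the probe set of most signal for each gene; points are arrays, black bars are group means of 2 arrays, and the light and dark bands span the lower quartiles and medians of the arrays. ALOX5 and HNMT vary widely between groups, the other 6 genes by less than 1 on the log2 scale, and PTGS2 and HPGD lie under the lower band.

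Differences between the unliganded lines were tested for the 6 genes other than ALOX5 and HNMT, each by its probe set of most signal. A gene was counted as higher or lower at a Benjamini-Hochberg adjusted p under 0.05 over all probe sets and a fold of at least 1.5, in limma, where the replicate number was fitted as a block. Of the 6 genes 0 passed in WT PR-A against T47D-Y cells, where 7.28% of all probe sets did, 0 in PR-A K388R against T47D-Y cells (3.36% of all) and 0 between both PR-A lines (7.43% of all). At an unadjusted p under 0.05 the numbers were 1, 0 and 1. In PR-A K388R against T47D-Y cells the second probe sets of ALOX15B (0.34, adjusted p = 0.168) and PTGS1 (0.35, adjusted p = 0.181) had an unadjusted p of 0.0224 and 0.0259 in limma. The genes behind the counts of 1 were ALOX15B, 0.36 higher with WT PR-A than without receptor (standard error 0.16, adjusted p = 0.235), and PTGS1, 0.39 higher in PR-A K388R than in WT PR-A cells (standard error 0.16, adjusted p = 0.161). PLA2G2A was 0.29 higher in PR-A K388R than in T47D-Y cells (adjusted p = 0.252). None of these differences passed the adjustment over all probe sets or reached the fold limit, so none is taken as a difference between lines.

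Of 77 further genes of these pathways 31 were measured by the probe sets used here, and each was represented by its probe set of most signal. The 77 were listed from general knowledge with earlier results of these data known, which limits what their p-values and counts can show. In WT PR-A cells R5020 raised 2 of 31 (3.63% of all probe sets were raised) and lowered 2 (2.77% of all were lowered). In the mutant line it raised 0 (1.01% of all) and lowered 0 (0.391% of all), and at an unadjusted p under 0.05 the number was also 0. The difference of the responses passed for 0 of 31 genes (1.47% of all, 0.519% upward and 0.953% downward), with 4 at an unadjusted p under 0.05. The median change of the 31 genes was 0.02 with WT PR-A, against -0.01 over all probe sets, and 0.01 with PR-A K388R, against 0.00.

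AOC1, the diamine oxidase that breaks down histamine outside the cell, was lowered by R5020 in WT PR-A cells. It read 8.06 and 7.81 with vehicle and 6.94 and 7.26 with R5020, a change of -0.83 (standard error 0.14, adjusted p = 0.0054). The PR-A K388R arrays of AOC1 read 9.18 and 9.06, then 8.92 and 8.84, a change of -0.24 (adjusted p = 0.617). The difference of the responses was 0.59 (standard error 0.20, adjusted p = 0.252) and did not pass. The call in WT PR-A cells was lost without WT PR-A R5020 replicate 1 (adjusted p = 0.0584) and without WT PR-A vehicle replicate 1 (adjusted p = 0.0764).

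MGST2, a microsomal glutathione transferase that can make leukotriene C4, also fell in WT PR-A cells. It read 9.89 and 9.87 with vehicle and 9.19 and 9.22 with R5020 (-0.68, standard error 0.13, adjusted p = 0.008). The PR-A K388R arrays of MGST2 read 9.89 and 9.92, then 10.1 and 9.86 (0.08, adjusted p = 0.898). The difference of the responses, 0.76, had an adjusted p of 0.0769, and of 0.0297 in the fit without the replicate block. The call in WT PR-A cells was lost when R5020 replicate 1 (adjusted p = 0.0619) or vehicle replicate 1 or 2 (0.0741 and 0.064) of that line was left out.

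Of the genes raised in WT PR-A cells, SLC18A2 encodes the vesicular transporter of monoamines and histamine and MAOA an amine oxidase of the mitochondria. SLC18A2 read 4.64 and 4.25 with vehicle and 5.26 and 5.37 with R5020 (0.87, standard error 0.17, adjusted p = 0.0109). Its call was lost without R5020 replicate 2 (adjusted p = 0.0777) or vehicle replicate 2 (0.126) of that line, and its second probe set changed by -0.03. MAOA read 5.75 and 5.69, then 6.20 and 6.55 (0.65, standard error 0.17, adjusted p = 0.0436), a call lost without either vehicle array of that line (adjusted p = 0.179 and 0.234), without R5020 replicate 2 (0.295) and without either R5020 array of PR-A K388R cells (0.0553 each). The second MAOA probe set changed by 0.50 and did not pass (adjusted p = 0.195). In PR-A K388R cells SLC18A2 changed by 0.12 and MAOA by -0.17, and the difference of the responses was -0.75 (adjusted p = 0.211) and -0.82 (adjusted p = 0.163).

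Between the unliganded lines, T47D-Y cells had more of the prostaglandin E2 receptor PTGER2 than either PR-A line. It read 5.85 and 5.36 in T47D-Y cells, while WT PR-A arrays read 3.25 and 3.23 and PR-A K388R arrays 3.15 and 3.24. The log2 differences were -2.37 and -2.42 (standard error 0.17, adjusted p = 2.92e-05 and 5.1e-05). Both PR-A lines stood near the lower quartiles. CYP4F3, which oxidises leukotriene B4, was lower as well, with log2 differences of -2.38 for WT PR-A (adjusted p = 0.00014) and -1.11 for PR-A K388R (standard error 0.22). It read 5.65 and 5.82 in T47D-Y cells, while WT PR-A arrays read 3.68 and 3.04 and PR-A K388R arrays 4.39 and 4.86. These WT PR-A readings lay on either side of the lower quartiles. The CYP4F3 call in PR-A K388R cells (adjusted p = 0.0216) was lost without vehicle replicate 1 of that line (0.125) and without T47D-Y replicate 1 or 2 (0.104 and 0.145). Both comparisons share the T47D-Y arrays.

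Against T47D-Y cells, WT PR-A cells had 1 of 31 genes higher (3.72% of all probe sets) and 4 lower (3.55% of all). For PR-A K388R cells 0 were higher (1.06% of all) and 2 lower (2.3% of all). Of 6 genes listed as histamine enzymes or transporters, 1 was higher and 2 were lower in WT PR-A cells. The others, MAOB, SLC18A2 and SLC29A4, had no call, nor had the histamine receptors HRH1 and HRH3. The other 2 lower genes, PTGER2 and CYP4F3, were listed under other roles, and no test was made by role. AOC1 was lower (-0.94, adjusted p = 0.0028), and MAOA was higher by 1.25 (adjusted p = 0.0013). ALDH2, an aldehyde dehydrogenase of broad specificity, had a difference of -0.69 (adjusted p = 0.0438). Unliganded PR-A K388R cells differed in AOC1, MAOA and ALDH2 from T47D-Y cells by 0.25, 0.16 and -0.02 with no call. The ALDH2 call was lost when any of the arrays of WT PR-A or T47D-Y cells was left out (adjusted p from 0.0501 to 0.341) and when either R5020 array of PR-A K388R cells was (0.0502).

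Between the unliganded PR-A lines 3 genes were higher in PR-A K388R cells (2.71% of all probe sets) and 2 lower (4.72% of all). AOC1 (1.19, adjusted p = 7e-04), CYP4F3 (1.26, adjusted p = 0.0052) and ALDH2 (0.66, adjusted p = 0.049) were higher. For CYP4F3 the WT PR-A arrays stood near the lower quartiles. MAOA (-1.10, adjusted p = 0.003) and the prostaglandin E2 receptor PTGER4 (-1.68, adjusted p = 0.0225) were lower. PTGER4 read 6.61 and 6.37 on the WT PR-A arrays against 5.42 and 4.21 on the PR-A K388R arrays, and its second probe set differed by -0.23. The PTGER4 call was lost without PR-A K388R vehicle replicate 2 (adjusted p = 0.165) or either vehicle array of WT PR-A cells (0.167 and 0.0888), and the ALDH2 call when any 1 of 7 arrays was left out (0.0546 to 0.303). The ALDH2 call was also lost with arrays centred on their medians (adjusted p = 0.0672) and with the compared arrays alone (0.074). The CYP4F3 call was lost without PR-A K388R vehicle replicate 2 (0.0576).

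**Figure D3:**
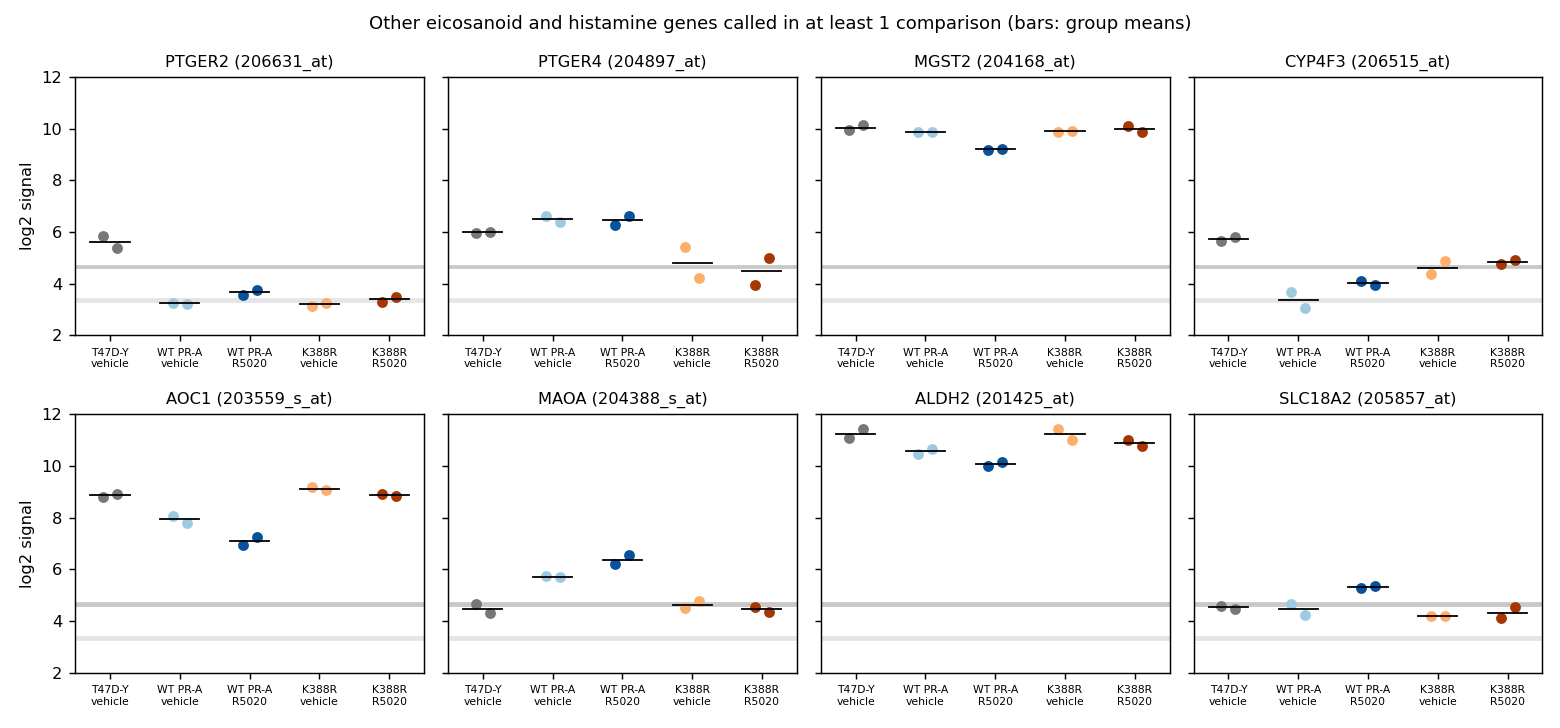
Log2 signal on the 10 arrays of the 8 other eicosanoid and histamine genes that passed the test in at least 1 of 6 comparisons; points are arrays, black bars are group means of 2 arrays, and the light and dark bands span the lower quartiles and medians of the arrays. AOC1 is lowest in R5020-treated WT PR-A cells, MAOA is highest there, and PTGER2 is high in T47D-Y cells only.

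The genes most like ALOX5 over the 10 arrays were sought among 1039 genes whose group means lay at least 1 apart, using Pearson's r as a description. AOC1 came first (r = 0.983), and the others included KDELR3, a retrieval receptor of the endoplasmic reticulum (0.982), INSIG1, a regulator of sterol synthesis (0.977), and ELF3, an epithelial transcription factor (0.975). AOC1 had group means of 8.87 for T47D-Y, 7.93 and 7.10 for WT PR-A without and with R5020, then 9.12 and 8.88 for PR-A K388R. These means follow the order of the ALOX5 groups, 8.66, then 7.07 and 4.91, then 9.53 and 8.60, except that T47D-Y lies just under the R5020-treated PR-A K388R cells for AOC1 and just above them for ALOX5. Such pairs of neighbours overlapped for ALOX5.

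Those most like HNMT were GBP1, an interferon-induced GTPase (r = 0.980), GUCY1A2, a guanylate cyclase subunit (0.979), PNP, a purine nucleoside phosphorylase (0.979), SYT1, a calcium sensor of vesicles (0.976), and TRIM38, an E3 ubiquitin ligase (0.976). GBP1 had means of 8.13 in WT PR-A cells with vehicle and 5.84 with R5020, and of 4.28, 4.29 and 4.08 in the other groups, the same split between high and low groups as HNMT. ALOX5 and HNMT were not alike (r = -0.585). The points of these correlations are 5 pairs of arrays, and differences between the lines set most of their size.

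**Figure D4:**
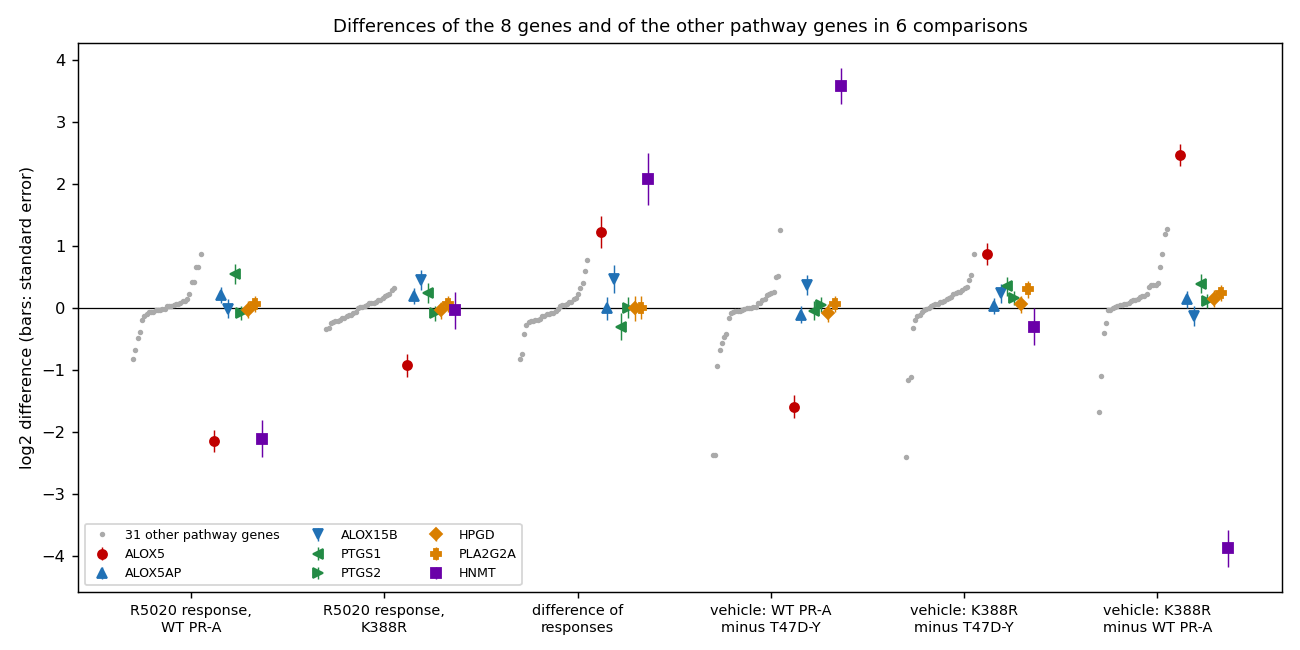
Log2 differences in the 6 comparisons for the 8 genes (coloured symbols, probe set of most signal, bars are the standard error) and the 31 other pathway genes (grey points, sorted within each comparison). ALOX5 and HNMT lie near -2 for R5020 in WT PR-A cells and point in opposite directions for the unliganded PR-A lines, and the other 6 genes stay between -0.31 and 0.54.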

How the data were processed

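RNA of 10 cell samples had been hybridised to Affymetrix U133 Plus 2 arrays. The deposited values are log2 signals, and the authors had used Partek Genomics Suite to normalize them; the normalization method and background correction are not given in the sources used here. The labels and the study's methods name different media and RNA kits. The 16376 probe sets used here are those whose identifiers sort first; 12547 have 1 gene symbol, 457 several and 3372 are not listed, and 12528 of the first matched a RefSeq gene (GRCh38.p14). Replicate differences sum to 0 over the 5 groups (largest absolute sum 0.0003), so the replicate number had been removed before deposit. limma 3.58.1 (R 4.3.3) was therefore fitted to all 10 arrays with 1 mean per group and a block for the replicate number (4 residual and 5.62 prior degrees of freedom). Deviations of same-numbered arrays then cannot show pairing (r of -0.511 to -0.013 between groups). Calls needed a fold of 1.5 or more and an adjusted p under 0.05 (Benjamini-Hochberg, all probe sets). The number of arrays limits the precision.

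Named genes were the 8 members with every probe set, up to 4 called pathway genes per direction and comparison, and the 5 genes with the highest r to ALOX5 and to HNMT, of which 1 is not reported here. Members, gene lists and tests were chosen with earlier results of these data known. The fit was tested on simulated data. Alternatives were no block, an intensity trend, unmoderated contrasts, quantile normalization, centring, a fold limit of 2, dropping the dimmest 40% of probe sets, the compared arrays alone, the probe set of largest variance, and leaving out each array. Promoter stretches came from RefSeq. Figures were drawn with matplotlib 3.10.9 (Python 3.11.15).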

Additional observations from a re-analysis of the deposited data

How the results depend on the processing

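The 6 genes tested between unliganded lines gave 0 calls under all 9 alternatives. Only 4 of them remained with the dimmest 40% of probe sets left out. The largest log2 difference of the 6 genes was 0.39, under the 0.585 that a fold of 1.5 needs. Changes of block, trend, moderation or arrays fitted leave that difference as it is, so most of these settings could not give a call. Numbers of pathway genes called moved as follows. In WT PR-A cells the 4 genes changed by R5020 became 0 with unmoderated contrasts and 0 at a fold of at least 2, and 1 to 4 with 1 array left out. For the difference of the responses, 0 became 1 (MGST2) with no replicate block (adjusted p = 0.0297) and 1 with an intensity trend (adjusted p = 0.0168). No other count of pathway genes moved by over 1.5 times without the block. For WT PR-A against T47D-Y, 5 became 2 with unmoderated contrasts and 3 at a fold of at least 2, and 4 to 5 with 1 array left out. For PR-A K388R against T47D-Y, 2 became 0 with unmoderated contrasts, 1 with the dimmest probe sets left out, and 1 to 3 with 1 array left out. Between the unliganded PR-A lines, 5 became 1 with unmoderated contrasts and 3 to 5 with 1 array left out. The cause of these moves was not tested. Of the values given without a test, 0 of 234 moved by more than 1 replicate SD under the other alternatives and 56 of 300 with 1 array left out. Only quantile normalization, centring and a change of probe set can alter a log2 difference, so most of the 234 could not move. Leaving out an array outside a comparison cannot alter its log2 difference either. Without replicate 1 or 2 of R5020-treated WT PR-A cells, the ALOX5 change in that line was -1.88 and -2.43. A group reduced to 1 array took its spread from the other groups. Of the 16 calls named, 13 were lost with unmoderated contrasts, 1 with arrays centred on their medians and 1 with the compared arrays alone (ALDH2 between the PR-A lines in both), and none changed sign.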
